A study of Mus musculus with 7 samples.

Results

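The genes described here are 38 genes of the mouse that copy DNA or supply its nucleotides, taken by symbol from the deposited gene table. All 38 were found among its 54532 genes, and all 38 passed the filter on low counts, with at least 73 counts in every library. They were measured by bulk RNA sequencing of cells sorted from spleen and labelled Tfh, for follicular helper T cells, which support the antibody response of B cells. Every mouse was sensitised with ovalbumin by intraperitoneal injection, and no further treatment is given. There were 3 libraries of genotype WT and 4 of genotype Mst1 knockout, each called a biological replicate and written Mst1∆CD4 in the titles, which is the usual notation for a gene removed with a Cre driven by Cd4, so other cells of such a mouse keep the gene. Strain, age and sex of the mice are not given in the sources used here. Nothing says which mice shared a cage, litter or day, so the p-values below measure the spread between these libraries.

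Before a cell copies its DNA, the origin recognition complex, CDC6 and CDT1 load the MCM helicase onto origins in G1, which is called licensing. At the start of S phase, CDC45 and the GINS complex turn the helicase on, primase and the polymerases copy the strands, the sliding clamp PCNA holds the polymerases on DNA, and ribonucleotide reductase and thymidylate synthase make the nucleotides. Many of these genes are transcribed by E2F factors once cyclin-dependent kinases have inactivated the retinoblastoma proteins, so their RNA is known as a sign of proliferating cells, whatever the cell type.

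Each library held between 16789158 and 18375275 counts. Mst1 is the protein name of the Hippo kinase encoded by Stk4, whose level was 316 to 336 CPM (counts scaled to library size with TMM factors) in the wild-type libraries and 287 to 302 CPM in the knockout libraries, and whose change did not pass the test (edgeR adjusted p = 0.225). The labelled cell type was checked against its markers. Transcripts of 8 B cell markers summed to 13000 to 16900 CPM in the wild-type and 5640 to 7870 CPM in the knockout libraries, against 389 to 638 CPM and 100 to 206 CPM for 8 T cell markers. Most of the B cell sum was Ighm, at 8020 to 13000 CPM in the wild-type and 3420 to 4780 CPM in the knockout libraries. RNA of several cell types was thus present, none of the markers was at 0 in every library, and the cells that carried the replication transcripts are not identified by these data. In such bulk samples a change in the number of cells of a type and a change in RNA per cell cannot be told apart.

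The replication and nucleotide genes were mostly higher in the knockout libraries. Of the 38 genes, 20 rose, 1 fell (Pold1, the catalytic subunit of DNA polymerase delta) and 17 did not pass edgeR's quasi-likelihood test at a Benjamini-Hochberg adjusted p of 0.05 over all 15795 genes tested. Across all tested genes, 8.71% were called higher and 6.83% lower. The log2 fold change, knockout over wild type, had a median of 0.50 over the 38 genes and of -0.002 over all tested genes, and was above 0 for 36 of the 38. Every knockout library lay above every wild-type library for 26 of the 38 genes, against 15.4% of all tested genes, and below for 1 of the 38, against 14.7%. The summed level of the 38 genes was 2970, 3040 and 3240 CPM in wild-type replicates 1 to 3 and 3620, 3990, 3930 and 4950 CPM in knockout replicates 1 to 4. Knockout replicate 4 was the highest knockout library for 33 of the 38 genes, and knockout replicate 1 the lowest for 23.

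The number of calls depended on which libraries were used. With all 7 libraries 20 of the 38 rose. Leaving out wild-type replicate 1 gave 6 (5.24% of all tested genes), leaving out replicate 2 gave 4 (3.94%) and leaving out replicate 3 gave 7 (4.27%). Among the knockout libraries, the count was 24 without replicate 1 (8.26%), 8 without replicate 2 (5.36%), 18 without replicate 3 (9.11%) and 16 without replicate 4 (7.66%). DESeq2 called 25 higher, where it called 10.2% of all genes it adjusted, and limma-voom 18, where it called 8.35%. Of the 21 genes called, 17 lost the call without at least 1 of the libraries, while Cdc6, Orc1, Tyms and Ccne1 were called in all 17 alternatives, and no gene of the 38 changed direction in any of them. In the authors' deposited table, 25 of the 38 were higher and 1 lower at an adjusted p under 0.05. Of its 26658 genes with a p-value, 6.94% were higher and 5.54% lower. That base is wider than the 18226 genes that DESeq2 adjusted here, so the shares are not directly comparable. Chaf1a, Mcm4, Pola1, Rfc4 and Uhrf1 were called in the authors' deposited table and not here.

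**Figure D1:**
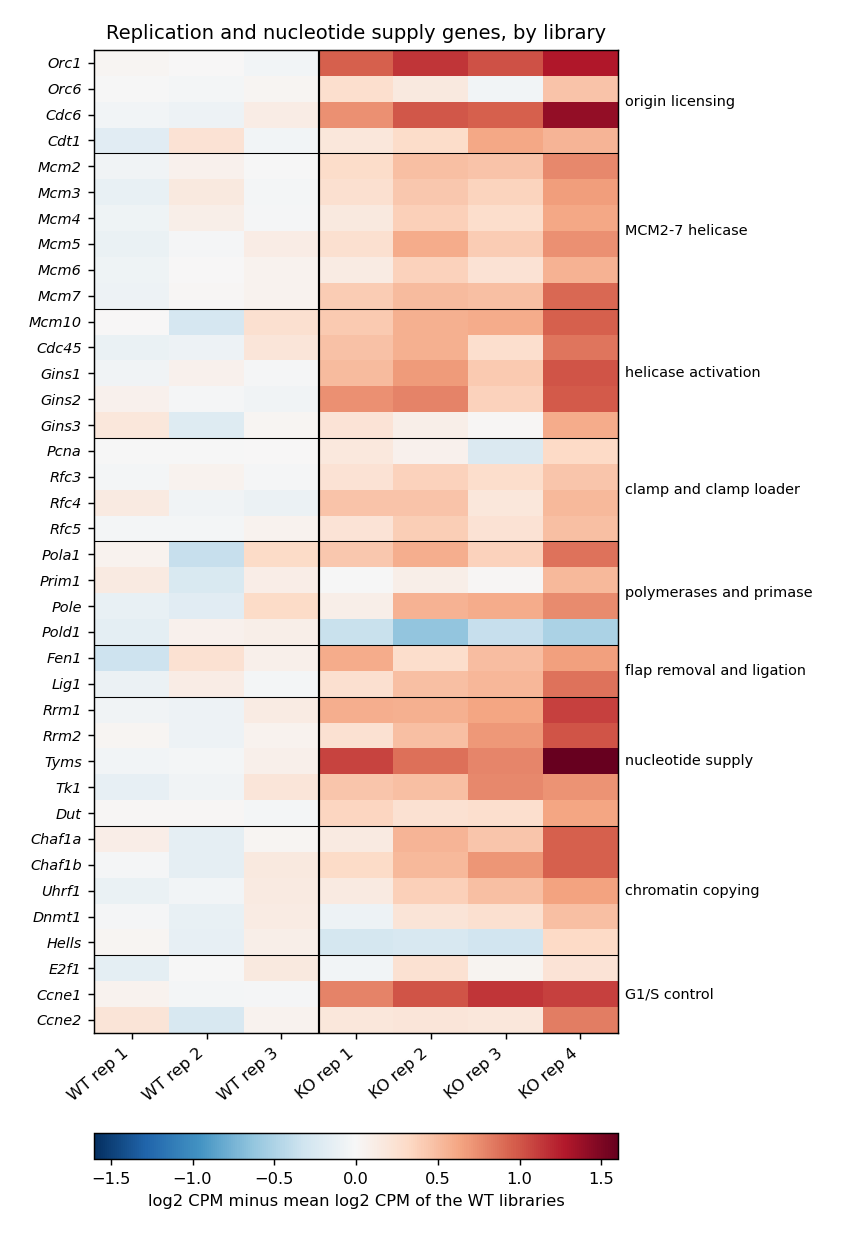
Level of each of the 38 genes (rows, grouped by role) in each library (columns), as log2 CPM minus the mean log2 CPM of the wild-type libraries (WT; knockout libraries are KO), so that red is above and blue below the wild-type mean. Most rows are red in all 4 knockout libraries and deepest in knockout replicate 4, while Pold1 is blue in all 4.

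Because these genes moved together and E2F factors are known to bind near the starts of many of them, their promoters were read from RefSeq (GRCm38.p6, the same build as the deposited table), from 250 bases before to 50 bases after each gene start that RefSeq gives. A promoter was found for 33 of the 38 genes, all but Ccne2, Gins1, Gins2, Mcm4 and Pole. RefSeq starts can differ from those of the gene model in the deposited table. For 22 of the 33 genes a RefSeq start lay within 50 bases of the table's, and 10 of the 40 windows, in Cdc6, Dnmt1, Dut, E2f1, Lig1, Mcm7 and Uhrf1, lay wholly inside the table's gene. The E2F core was searched as the word TTCCCGC, or the word TTCGCGC, or as the related word TTGCCGC, or lastly as TTGGCGC, on both strands, and matches may overlap. It was found for 22 of these 33 genes (66.7%), for 2936 of 27025 genes with a promoter in the same table (10.9%), and for 3 of 20 mitosis genes (15%). Base composition was not matched between these sets. Of the genes that rose, 10 of 18 with a promoter had a match, and of those that did not pass, 11 of 14 did, and the promoter of Pold1, which fell, also had a match. The CCAAT box (CCAAT) was found for 57.6% of the 33 genes, 80% of the mitosis genes and 41.1% of all genes. The cell cycle homology region (TTTGAA), known from promoters of mitosis genes, was found for 15.2%, 70% and 20.2%. A match describes letters in this window and does not show that a factor binds there.

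The promoters printed here run 5′ to 3′ along the gene and are those of the licensing genes Orc1 and Cdc6, which had among the largest rises, of the helicase gene Mcm5, with 3 matches of which 2 overlap, of Pold1, which fell, and of the cyclin gene Ccne1, which rose and had none of the 4 words. Capitals mark E2F core matches on either strand, and positions count from 0 at the RefSeq start, which for Cdc6 lay 350 bases inside the table's gene. The match in Orc1 began at -27, that in Cdc6 at -138, those in Mcm5 at -164, -152 and -149, and that in Pold1 at 39.
Orc1 (chr4:108579204-108579503, plus strand): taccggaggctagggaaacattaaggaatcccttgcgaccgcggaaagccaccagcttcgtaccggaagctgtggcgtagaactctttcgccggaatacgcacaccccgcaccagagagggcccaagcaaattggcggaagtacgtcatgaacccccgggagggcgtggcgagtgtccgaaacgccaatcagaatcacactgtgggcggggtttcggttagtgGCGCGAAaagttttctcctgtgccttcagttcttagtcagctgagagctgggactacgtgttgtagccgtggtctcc
Cdc6 (chr11:98907901-98908200, plus strand): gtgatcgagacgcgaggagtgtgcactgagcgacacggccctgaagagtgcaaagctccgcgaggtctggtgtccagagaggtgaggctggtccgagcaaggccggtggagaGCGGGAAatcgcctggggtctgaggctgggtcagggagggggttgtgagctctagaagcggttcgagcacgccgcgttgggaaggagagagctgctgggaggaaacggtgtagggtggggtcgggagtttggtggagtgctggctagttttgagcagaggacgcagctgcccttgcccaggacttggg
Mcm5 (chr8:75109259-75109558, plus strand): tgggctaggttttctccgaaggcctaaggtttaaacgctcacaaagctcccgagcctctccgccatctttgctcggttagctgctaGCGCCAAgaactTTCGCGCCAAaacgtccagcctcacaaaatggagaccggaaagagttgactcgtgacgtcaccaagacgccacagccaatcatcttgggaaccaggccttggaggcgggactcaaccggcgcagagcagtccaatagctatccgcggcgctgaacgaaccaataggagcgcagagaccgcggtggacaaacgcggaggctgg
Pold1 (chr7:44548766-44549065, minus strand): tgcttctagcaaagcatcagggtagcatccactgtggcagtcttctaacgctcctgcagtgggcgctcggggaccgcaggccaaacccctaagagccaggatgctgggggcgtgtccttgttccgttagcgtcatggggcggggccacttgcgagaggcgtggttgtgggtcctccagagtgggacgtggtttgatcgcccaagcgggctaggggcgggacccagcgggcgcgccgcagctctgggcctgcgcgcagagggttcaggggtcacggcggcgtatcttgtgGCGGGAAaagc
Ccne1 (chr7:38107441-38107740, minus strand): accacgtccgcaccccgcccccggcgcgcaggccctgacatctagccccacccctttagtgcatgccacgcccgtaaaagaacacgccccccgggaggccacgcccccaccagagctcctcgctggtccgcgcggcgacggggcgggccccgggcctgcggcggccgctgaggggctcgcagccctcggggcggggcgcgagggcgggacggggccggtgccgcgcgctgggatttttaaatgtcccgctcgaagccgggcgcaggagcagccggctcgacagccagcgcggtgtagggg

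**Figure D2:**
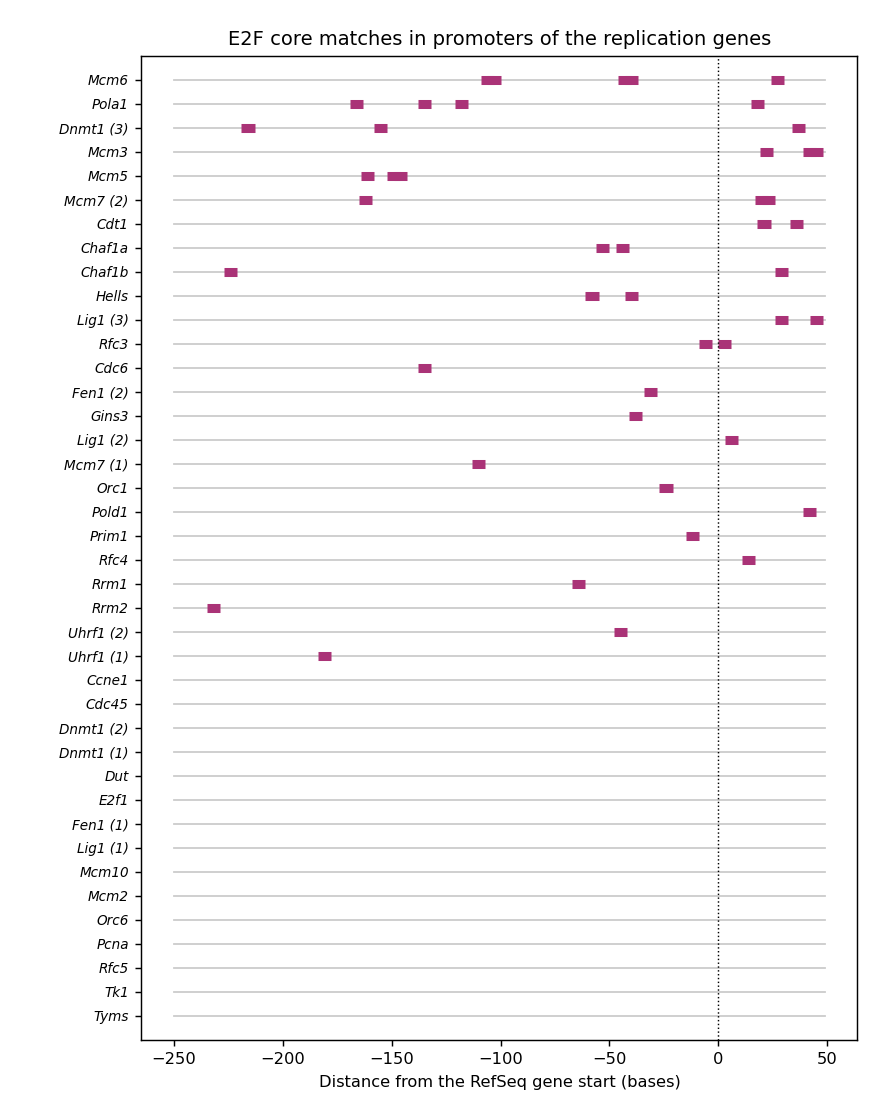
Positions of E2F core matches (purple bars) in the 40 RefSeq promoters of 33 genes, against the distance in bases from the RefSeq gene start (dotted line at 0). Numbers in brackets separate promoters of the same gene. Of the 46 matches, 30 began at -100 or later, and Mcm6 had the most, 5.

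Licensing genes differed among themselves. Orc1 (ENSMUSG00000028587, chromosome 4, 108579423 to 108614833, plus strand) encodes the largest subunit of the origin recognition complex, and its RNA and protein are known to rise and fall with the cell cycle. It stood at 6.1, 5.98 and 5.77 CPM in wild-type replicates 1 to 3 and at 11.5, 13.1, 12.1 and 14.4 CPM in knockout replicates 1 to 4. All knockout libraries lay far above the wild-type ones, which were nearly equal. Orc1 rose with a log2 fold change of 1.10 (SE 0.15, edgeR adjusted p = 0.00269), 2.15-fold. Of the Orc1 exon bases, 10.8% lie under Gm12743 on the opposite strand, which held 9 to 28 counts per library. Cdc6 (ENSMUSG00000017499, chromosome 11, 98907801 to 98923940, plus strand), the ATPase that loads the helicase with ORC and CDT1, had 31.4, 30.6 and 35 CPM and then 53.7, 64.4, 62.6 and 85.9 CPM. The groups were separate, and knockout replicate 4 was the highest. Its log2 fold change was 1.04 (SE 0.16, 95% interval 0.69 to 1.40, adjusted p = 0.00404).

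The other licensing genes moved less. Cdt1, the loading factor that geminin inhibits, stood at 64.5, 85.2 and 70.4 CPM in the wild type and 82.5, 89.5, 112 and 106 CPM in the knockout. Wild-type replicate 2 lay above knockout replicate 1, and the log2 fold change of 0.41 did not pass (adjusted p = 0.0751). Orc6, another subunit of the origin recognition complex, had 30.6 to 31.9 CPM in the wild type and 30.2 to 42.9 CPM in the knockout, with overlapping groups and a log2 fold change of 0.22 (adjusted p = 0.266). Geminin's gene Gmnn, outside the 38, rose from 32.4 ± 0.715 (SD, n = 3) to 47.9 ± 6.84 CPM (n = 4). The ratio of Cdt1 to Gmnn, in FPKM (fragments scaled to library size and gene length, as deposited), was 0.949, 1.23 and 0.99 in the wild type and 0.747, 0.981, 1.25 and 0.891 in the knockout. The groups overlapped in this ratio (two-sided exact permutation test, p = 0.457).

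The genes of the ring-shaped helicase MCM2 to MCM7, which unwinds DNA at the fork, were all higher in each knockout library than in any wild-type library. Mcm2, Mcm3, Mcm5 and Mcm7 rose, and Mcm4 and Mcm6 did not pass (adjusted p = 0.0662 and 0.086). The 6 log2 fold changes lay between 0.33 and 0.59. Mcm7, with the largest, stood at 158, 170 and 174 CPM in the wild type and 221, 237, 234 and 317 CPM in the knockout. Knockout replicate 4 stood apart from the other knockout libraries. Its log2 fold change was 0.59 (SE 0.13, adjusted p = 0.0195), and its processed pseudogene AC125028.1, 97.7% identical over 2157 bases, held 3 to 9 counts. Mcm2 had 126, 137 and 130 CPM and then 160, 183, 179 and 224 CPM, with a log2 fold change of 0.51 (SE 0.12, adjusted p = 0.0226). In Mcm6, with the smallest difference, the gap between the groups was narrow, from 213 CPM in wild-type replicate 3 to 224 CPM in knockout replicate 1. The Mcm7 exons share 7.3% of their bases with Ap4m1 on the opposite strand, and the strand setting of the counting was not given in the sources used here.

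Helicase activation genes rose in 4 of 5 cases. Gins2 and Gins1 encode subunits of GINS, which joins CDC45 and the MCM ring at the active fork. Gins2 had 12.3, 11.6 and 11.3 CPM in the wild type and 19.5, 20.4, 15.1 and 23.1 CPM in the knockout, a log2 fold change of 0.74 (SE 0.16, adjusted p = 0.0173). Of the Gins2 exon bases, 67.3% lie under exons of Gse1 on the opposite strand, so its level is uncertain; Gse1 itself stood at 60.3 ± 8.52 and 63.5 ± 11.3 CPM. Gins1 had 12.4 to 13.6 CPM and 17.3 to 26 CPM, with a log2 fold change of 0.67 (adjusted p = 0.0255). Gins3, of the same complex, stood at 13.3 to 17.5 CPM and 15.6 to 23.3 CPM, with overlapping groups and a log2 fold change of 0.24 (SE 0.17, adjusted p = 0.374). Cdc45 rose by 0.55 (40 to 49.3 CPM against 52.1 to 78.3 CPM) and Mcm10, an initiation factor at the fork, by 0.63 (31.6 to 45.7 CPM against 51 to 73.7 CPM).

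**Figure D3:**
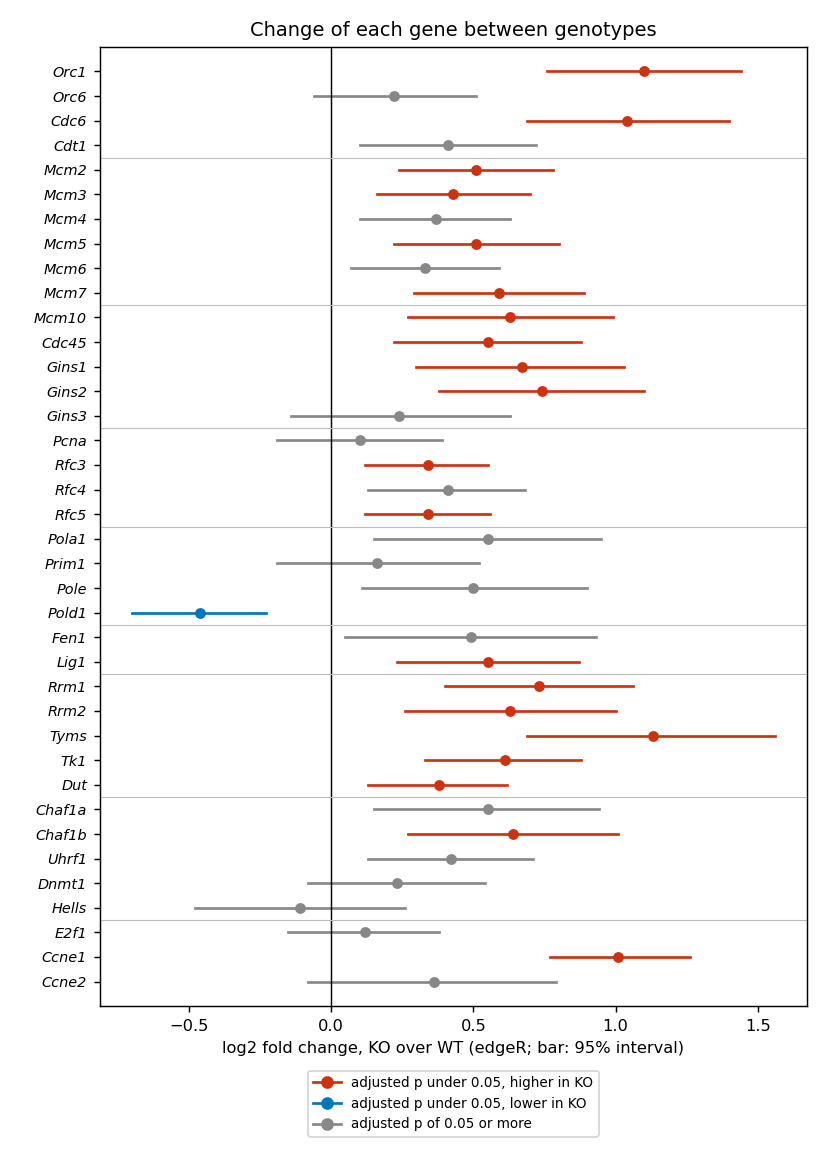
Log2 fold change of each of the 38 genes, knockout (KO) over wild type (WT), with its 95% interval from the edgeR fit, in the same role order as the plot of levels by library. Red marks the 20 genes called higher, blue the 1 called lower (Pold1) and grey the 17 that did not pass.

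Nucleotide supply was the role in which every gene rose, 5 of 5. Tyms (ENSMUSG00000025747, chromosome 5, 30058202 to 30073617, minus strand) encodes thymidylate synthase, which makes the thymine nucleotide dTMP. It had 35.3, 35.5 and 38.5 CPM in the wild type and 77.3, 67.1, 62.6 and 111 CPM in the knockout. The lowest knockout library was well above the highest wild-type one, and knockout replicate 4 was the highest. With a log2 fold change of 1.13 (SE 0.19, 95% interval 0.69 to 1.56, adjusted p = 0.00728), its change was the largest of the 38 as fitted. Its pseudogene Tyms-ps held at most 1 count in any library. Shorter stretches of Tyms transcripts also match expressed genes at 95% identity or more. Among these were Map3k2 (357 bases, 1206 to 1648 counts) and Reep3 (355 bases, 1254 to 1615 counts). Cd200r3 (283 bases) held 98, 52 and 50 counts in the wild type and 82, 124, 116 and 356 in the knockout. Whether such stretches shared reads with Tyms was not tested.

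Rrm1 and Rrm2 encode the large and small subunits of ribonucleotide reductase, which turns ribonucleotides into deoxyribonucleotides. Rrm1 stood at 173, 169 and 197 CPM in the wild type and 268, 267, 278 and 381 CPM in the knockout. It rose by 0.73 (SE 0.15, adjusted p = 0.0124). Rrm2, whose product is broken down at the end of the cell cycle, had 138, 128 and 140 CPM and then 160, 189, 218 and 272 CPM, and rose by 0.63 (SE 0.17, adjusted p = 0.0339). In FPKM, the ratio of Rrm2 to Rrm1 was 2.82 to 3.16 in the wild type and 2.37 to 3.11 in the knockout, with overlapping groups (exact permutation p = 0.343). Tk1, the cytosolic thymidine kinase of the salvage pathway, rose by 0.61 (SE 0.12, adjusted p = 0.0132), from 63.5, 66.8 and 80 CPM to 95.2, 97.3, 119 and 115 CPM. Dut, the dUTPase that keeps uracil out of DNA, stood at 66.1 to 68.6 CPM and 80.2 to 105 CPM. It rose by 0.38 at an adjusted p of 0.0447, and it no longer passed in 10 of its 17 alternatives.

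Of the 4 polymerase and primase genes among the 38, none was called higher and Pold1 fell, with a median log2 fold change of 0.33. Pold1 (ENSMUSG00000038644, chromosome 7, 44532746 to 44548849, minus strand) had 130, 151 and 154 CPM in the wild type and 113, 93, 112 and 102 CPM in the knockout. Here the order was turned round, with every knockout library below every wild-type library. Pold1 fell by 0.46 on the log2 scale (SE 0.10, adjusted p = 0.0188), and the call was lost when wild-type replicate 2 or 3, or knockout replicate 2, was left out. No other annotated exon overlaps its exons. Among the further subunits of polymerase delta, which are not of the 38, Pold2 rose from 29.9 ± 2.53 to 42.7 ± 3.83 CPM and Pold4 fell from 112 ± 13.9 to 74.3 ± 13.5 CPM. Pold3 stood at 76.1 ± 3.81 and 83 ± 12.1 CPM and did not pass. Pold3 and Pold4 were chosen after their values were seen.

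Pola1, the catalytic subunit of polymerase alpha that extends the primer, had 33 to 52.7 CPM in the wild type and 54.9 to 77.6 CPM in the knockout, with separate groups and a log2 fold change of 0.55 (adjusted p = 0.0662). Pole, the catalytic subunit of the leading-strand polymerase epsilon, had 42.3 to 59.2 CPM and 51.4 to 81.1 CPM, with 0.50 (adjusted p = 0.0812). Prim1, the catalytic subunit of primase, stood at 35.4 to 46.3 CPM and 41.9 to 60.3 CPM, with 0.16 (95% interval -0.19 to 0.52, adjusted p = 0.521). None of these 3 passed, and in Pole and Prim1 the groups overlapped. Among further subunits of these enzymes, not of the 38, Prim2 rose by 0.75 and Pola2 by 0.32 (edgeR adjusted p = 0.0189 and 0.0296). Pole3 rose by 0.75, while Pole2, at 0.40, and Pole4, at -0.36, did not pass. Prim2, Pola2, Pole2 and Pole4 were chosen after their values were seen.

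**Figure D4:**
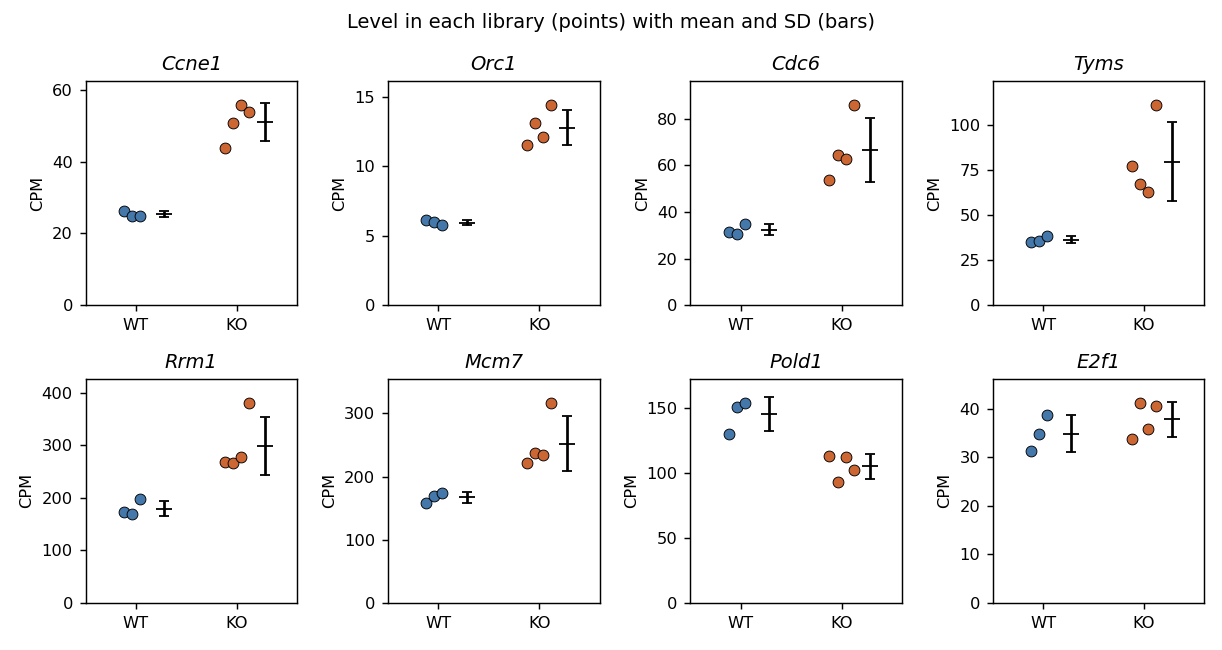
Level in CPM of 8 of the genes in each library (points; WT is wild type, n = 3, KO is knockout, n = 4), with the mean and SD beside them and axes that start at 0. Ccne1, Orc1, Cdc6, Tyms, Rrm1 and Mcm7 are higher in all knockout libraries, Pold1 is lower in all of them, and in E2f1 the groups overlap.

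Of the 4 clamp and clamp loader genes, 2 rose, and in 3 every knockout library lay above every wild-type library. The loader, replication factor C, opens the PCNA ring and closes it on DNA. Rfc3 and Rfc5 rose by 0.34 each (adjusted p = 0.0456 and 0.0475), from 28.6 ± 0.938 to 36.1 ± 2.31 CPM and from 47.2 ± 1.57 to 59.6 ± 5.4 CPM. Rfc3 no longer passed in 9 and Rfc5 in 10 of 17 alternatives. Of the Rfc5 exon bases, 10.7% lie under Wsb2 on the opposite strand. Rfc4 had 20.4 to 24 CPM and 24.7 to 31.1 CPM, with 0.41 (adjusted p = 0.052), just short of the threshold, and 12.7% of its exon bases lie under Eif4a2 on the opposite strand. Pcna itself (ENSMUSG00000027342, chromosome 2, 132249162 to 132253314, minus strand) had 248, 247 and 250 CPM in the wild type and 279, 260, 211 and 310 CPM in the knockout. The wild-type libraries were almost equal and lay inside the knockout range, and Pcna, at 0.10 on the log2 scale (SE 0.13, adjusted p = 0.651), was not called.

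The Pcna values depend on a near-identical copy. Pcna-ps2 (ENSMUSG00000067608, chromosome 19, 9283238 to 9284494, plus strand) is a single-exon copy that matches the Pcna transcript at 99.2% over 781 bases. The copy is not of the 38 and was chosen for description because of its values. It held 10, 22 and 9 counts in wild-type replicates 1 to 3 and 666, 605, 974 and 707 counts in knockout replicates 1 to 4, which is 0.799 ± 0.417 CPM and 41.7 ± 8.77 CPM (log2 fold change 5.69, SE 0.32, adjusted p = 6.8e-05). Knockout replicate 3, with the most counts of the copy, had the lowest Pcna value. Counts of the copy made up 0.203% to 0.515% of the sum of both genes in the wild type and 11.3% to 20.4% in the knockout. With both counted as 1 gene, an alternative chosen after seeing the data, the level was 248, 248 and 251 CPM against 318, 294, 265 and 350 CPM. The groups then no longer overlapped, and the log2 fold change was 0.30 (SE 0.11, adjusted p = 0.0921). From which of these genes the reads came cannot be told apart in counts per gene, so the change of Pcna is uncertain.

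**Figure D5:**
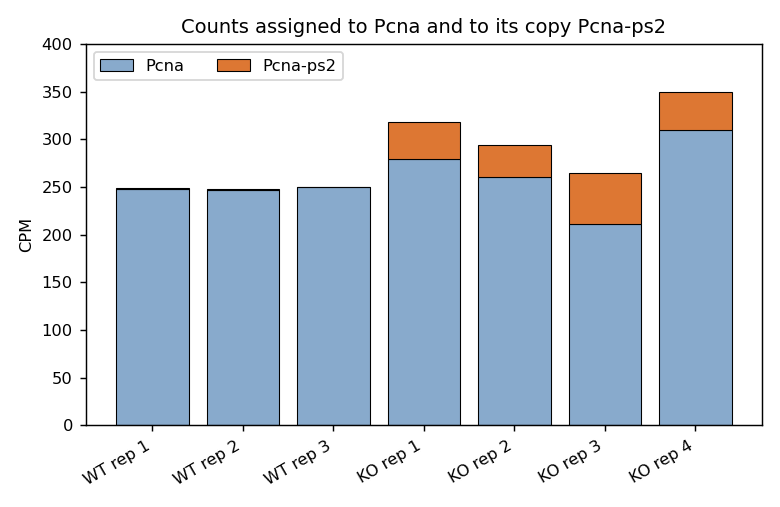
CPM assigned to Pcna (blue) and to its copy Pcna-ps2 (orange), stacked, in each library (WT is wild type, KO is knockout), on an axis that starts at 0. The copy is barely visible in the 3 wild-type libraries, at 0.509 to 1.28 CPM, and reaches 33.7 to 54.2 CPM in the 4 knockout libraries.

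For flap removal and ligation, Lig1, the ligase that joins Okazaki fragments, had 94.2, 109 and 97.7 CPM in the wild type and 120, 140, 145 and 183 CPM in the knockout. It rose by 0.55 (SE 0.14, adjusted p = 0.0303). Fen1, the flap endonuclease of the same step, held only 73 to 114 counts per wild-type library and 122 to 157 per knockout library. The noncoding gene Gm10143 on the opposite strand covers 78.8% of the Fen1 exon bases, so this level is uncertain. The groups did not overlap (4.45 to 6.62 CPM and 6.79 to 8.79 CPM), and the log2 fold change of 0.49 did not pass (adjusted p = 0.117).

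Genes that copy chromatin and its methylation behind the fork were mixed, with 1 of 5 called. Chaf1b and Chaf1a encode subunits of CAF-1, which deposits histones on new DNA. Chaf1b had 21.2, 19.4 and 23.9 CPM in the wild type and 26.6, 30.8, 35.1 and 41.7 CPM in the knockout, and rose by 0.64 (SE 0.16, adjusted p = 0.0298). Chaf1a had 37.3 to 44.4 CPM and 45.6 to 79.8 CPM, with 0.55 (adjusted p = 0.0651), and 52.5% of its exon bases lie under Ubxn6 on the opposite strand. Uhrf1, which brings the maintenance methyltransferase to hemimethylated DNA, had 124, 130 and 148 CPM and then 147, 174, 186 and 209 CPM. Its log2 fold change of 0.42 did not pass (adjusted p = 0.0573), with knockout replicate 1 just inside the wild-type range. Dnmt1, that methyltransferase, stood at 270 to 320 CPM and 277 to 409 CPM, with 0.23 (adjusted p = 0.285).

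The FPKM ratio of Uhrf1 to Dnmt1 was 0.749 to 0.837 in the wild type and 0.885 to 0.922 in the knockout, without overlap (exact permutation test, p = 0.0286, below which 3 against 4 libraries cannot go, and 0.143 adjusted over the 5 ratios tested). The ratio of Chaf1a to Chaf1b was 0.934 to 1.1 and 0.842 to 1.03 (exact permutation p = 0.371). Hells, a chromatin remodeller needed for DNA methylation, was with Pold1 the other gene with a negative value. It had 62.2, 55.6 and 64.8 CPM in the wild type and 49.8, 50.8, 49 and 76 CPM in the knockout. Knockout replicates 1 to 3 lay below all wild-type libraries and knockout replicate 4 above them, and Hells, at -0.11 on the log2 scale (SE 0.16, adjusted p = 0.686), was not called.

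Among the regulators of S-phase entry, only Ccne1 was called of 3. Ccne1 (ENSMUSG00000002068, chromosome 7, 38097984 to 38107534, minus strand) encodes cyclin E1, the partner of CDK2 at the start of S phase. Its levels were 26.3, 24.8 and 24.9 CPM in the wild type and 43.9, 50.7, 55.8 and 53.9 CPM in the knockout. Both groups were tight and far apart, and knockout replicate 4 was not the highest here. It rose by 1.01 (SE 0.11, 95% interval 0.77 to 1.26, adjusted p = 0.00112), which gave it the smallest p of the 38. Ccne2, which encodes cyclin E2, stood at 26.7, 19.3 and 24 CPM and then 26.3, 26.4, 26.2 and 40.9 CPM. Apart from knockout replicate 4 its values lay within the wild-type range, and 0.36 did not pass (adjusted p = 0.239). Of the Ccne2 exon bases, 17.4% lie under Ints8 on the opposite strand, which held 766 to 891 counts per library. The Ccne2 level, and its ratio with Ccne1, carry that limit. The FPKM ratio of Ccne1 to Ccne2 was 1.29, 1.69 and 1.36 in the wild type and 2.2, 2.52, 2.8 and 1.73 in the knockout (exact permutation p = 0.0571, 0.143 adjusted over the 5 ratios).

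E2f1, which encodes a member of the E2F family, had 31.2, 34.7 and 38.7 CPM in the wild type and 33.8, 41.2, 35.8 and 40.5 CPM in the knockout. The groups overlapped, and the log2 fold change was 0.12 (95% interval -0.15 to 0.38, adjusted p = 0.54).

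Levels of different genes were compared per length, as the deposited FPKM. In the wild type, Pcna stood highest at 102 ± 1.05 FPKM (n = 3), followed by Rrm2 at 48.4 ± 2.22 and Mcm5 at 45.4 ± 3.84 FPKM, which did not differ beyond their spread. The 6 MCM ring genes lay between 18.6 FPKM for Mcm2 and 45.4 FPKM for Mcm5. The lowest were Gins2 at 2.83 ± 0.121, Fen1 at 2.32 ± 0.46 and Orc1 at 1.69 ± 0.041 FPKM. In the knockout, Pcna was at 109 ± 16.7 FPKM (n = 4), Rrm2 at 74.8 ± 16.7 and Orc1 at 3.63 ± 0.348 FPKM. The length is that of the gene model in the deposited table.

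Other genes of the same pathways were read from lists. Of 45 further replication genes, 14 rose, 1 fell and 30 did not pass, with a median log2 fold change of 0.32. Recql4, a helicase that takes part in initiation, rose by 0.97 on the log2 scale (adjusted p = 0.00408; 12.9 ± 1.45 CPM in the wild type, 25.3 ± 3.25 CPM in the knockout), Dna2, a nuclease of flap removal, by 0.89, Pole3, an accessory subunit of polymerase epsilon, by 0.75 and Rnaseh2b, a subunit of ribonuclease H2, by 0.52. The gene that fell was Pold4. The count of 14 dropped to 4, 6 and 5 without wild-type replicate 1, 2 and 3, and to 7 without knockout replicate 2. Of 24 further genes of nucleotide supply, 5 rose, 1 fell and 18 did not pass (median 0.29). Those that rose act in the building of purines (Paics by 0.40, Ppat and Gart by 0.31 each) and of pyrimidines (Ctps by 0.45, Umps by 0.34). Rrm2b, the p53-inducible small subunit of ribonucleotide reductase, had 43.3 ± 5.85 CPM in the wild type and 26.9 ± 3.51 CPM in the knockout and fell (log2 fold change -0.68, adjusted p = 0.0137), while Rrm2 rose. The count of 5 that rose was 0 without wild-type replicate 1 or 3, 1 without wild-type replicate 2 or knockout replicate 2, 2 without knockout replicate 3 or 4, and 4 without knockout replicate 1.

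Of 28 G1/S regulators, 8 rose, none fell in edgeR (2 were lower at an unadjusted p under 0.05, and 0 in DESeq2 and in limma-voom at an adjusted p under 0.05), and the median was 0.24. They include genes of opposite roles. The inhibitors of cyclin-dependent kinases Cdkn1a and Cdkn2c rose by 1.00 and 0.58, and Cdk4, which such inhibitors restrain, rose by 0.40. Skp2, a ubiquitin ligase subunit that removes the inhibitor p27, rose by 0.54. Tfdp2, a dimer partner of E2F factors, had 19.8 ± 3.52 CPM and 42.6 ± 10.1 CPM and rose by 1.11 (adjusted p = 0.00883), and E2f6, a repressing member of the family, by 0.64. The count of 8 was 4, 3 and 5 when wild-type replicate 1, 2 or 3 was left out, and 5 when knockout replicate 2 was. Of 25 mitosis genes, 13 rose and none fell in edgeR, DESeq2 or limma-voom, also none at an unadjusted p under 0.05, with a median of 0.59. The count of 13 was 2 when wild-type replicate 1 or 2 was left out and 5 when knockout replicate 2 was. Ccna2, the cyclin of S phase and G2, rose by 0.87, the spindle checkpoint kinase gene Ttk by 0.97 and Ccnb1, the mitotic cyclin, from 70.7 ± 19.5 to 130 ± 26.5 CPM. Ccnb2 and Aurkb rose by 0.71 each and Birc5, of the same chromosomal passenger complex as Aurkb, by 0.62. Whether the difference in median between the 38 genes and the mitosis genes exceeds error was not tested.

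Markers of several cell types moved with the groups. All 13 erythroid markers in the table rose, with a median log2 fold change of 3.53. Their summed level was 141, 75.8 and 92.8 CPM in wild-type replicates 1 to 3 and 708, 1070, 1040 and 1620 CPM in knockout replicates 1 to 4. Among the knockout libraries this is the same order as that of the summed replication genes, and among the wild-type libraries it is not. This order is not particular to erythroid markers. The summed mitosis genes had it too, at 3580, 4020, 3640 and 5440 CPM in knockout replicates 1 to 4. T cell and Tfh marker sums had its exact reverse, at 206, 143, 170 and 100 CPM and at 255, 198, 253 and 145 CPM. What lies behind the shared order was not tested. The transcription factor genes Klf1 and Gata1, which drive red cell maturation, were among them, with Klf1 at 4.33 ± 1.39 CPM and 52.7 ± 9.87 CPM and Gata1 at 4.79 ± 1.48 CPM and 36.7 ± 8.54 CPM. Of 8 monocyte and macrophage markers, 2 rose (Ly6c2 and Ccr2, genes of inflammatory monocytes), 1 fell and 5 did not pass. In Ly6c2 the groups overlapped. Cx3cr1, named here because it fell, went from 66.9 ± 28.8 to 28.7 ± 8.78 CPM. Sums of the 8 markers were 4740 to 8320 CPM in the wild type and 6940 to 11600 CPM in the knockout. Of 5 tested megakaryocyte markers, 2 rose, with sums of 17.2 to 20.3 CPM and 28.6 to 39.3 CPM over 6 genes.

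Markers of T cells, Tfh cells, B cells and germinal centre B cells moved the other way. All 8 T cell markers fell (Cd3e from 45.7 ± 9.28 to 11.4 ± 5.61 CPM), 7 of 8 Tfh markers fell (Icos by 1.70 on the log2 scale; Cxcr5 did not pass), with sums of 360 to 456 CPM and 145 to 255 CPM, and 2 of 8 B cell markers fell. All 6 markers of germinal centre B cells, a rapidly dividing cell type, fell, from sums of 283 to 312 CPM to sums of 96.1 to 141 CPM, with S1pr2 at a log2 fold change of -0.89. Of 6 plasma cell markers 1 fell (Irf4), and their median log2 fold change was 0.0. Their sums overlapped, at 1320 to 2500 CPM and 990 to 3030 CPM. The 8 markers of neutrophils and their precursors were split, with sums of 10600 to 13700 CPM and 7050 to 10900 CPM. Ngp, Ltf and S100a8 fell, and Camp, at -0.70, did not pass. Elane, Mpo, Prtn3 and Ctsg had log2 fold changes of 0.21, 0.56, 0.66 and 0.92 and did not pass. In Ctsg every knockout library lay above every wild-type library. The early precursor genes Elane and Mpo were highest in knockout replicate 4, at 656 and 966 CPM, and their groups overlapped. The part of these cell types in the higher replication genes was not tested.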

How the data were processed

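Whole RNA of 7 spleen cell libraries (3 wild-type, 4 knockout) was sequenced from libraries made with an NEBNext Ultra kit after extraction on Qiagen columns, per the labels' protocols. Per the file headers, the deposited table gives a read count and an FPKM value per gene and library, and the log2 fold change, p-value and adjusted p-value of the authors' own comparison. Counts were not normalized. The deposited FPKM values equal counts over gene length times 1 factor per library, to a relative range of 8.4e-09. The header codes the sides of that comparison without naming genotypes. Its log2 fold changes were taken as knockout over wild type because they differed from those of scaled counts by a median of 0.000145 in that direction and of 0.435 in the other, over 10788 genes with a mean of at least 100. The submitters' processing notes name the build as GRCm38 and mm10. The aligner, counter, annotation release and strand setting are not given in the sources used here.

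Counts of all 7 libraries were fitted with edgeR 4.0.16 in R 4.3.3 (TMM, filterByExpr defaults, robust quasi-likelihood F-test, genotype only), and p-values were adjusted by Benjamini-Hochberg over 15795 genes. The SE is the log2 fold change over the square root of F. Levels are mean ± SD of TMM-scaled CPM. FPKM ratios were compared by two-sided exact permutation over 35 splits (smallest p 0.0286), with Benjamini-Hochberg over 5 ratios. Alternatives were DESeq2 1.42.0, limma-voom (limma 3.58.1), 3 other scalings, 2 other filters (none, or 10 counts in every library of a group), a fit that was not robust, limma on log2 FPKM with a pseudocount of 1, a replicate block and each library left out. The edgeR steps were tested on simulated data, where 68% of log2 changes of 1 and 92% of those of 2 were recovered. Of the calls in these simulated data, 5.88% were false. Smaller changes, such as the median of 0.50 of the 38 genes, were not simulated.

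Copies were searched in GENCODE M21 transcripts (at least 95% identity over at least 200 bases) and overlaps in its exons. The 38 genes, the lists, the markers and the rule for named genes were chosen with earlier results of these data known. The rule names all 38 genes, up to 6 called genes of each further list by smallest p, and the first 2 markers of each cell type, some of which are given only in sums or are not reported here. Of 14 erythroid markers, 13 were matched by symbol. No pair of libraries agreed within sampling noise, and totals limit precision to that of 16789158 to 18375275 counts. Intervals cover the spread between libraries.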

Additional observations from a re-analysis of the deposited data

Results flagged for a closer look

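In 5 of the 38 genes, knockout replicate 4 stood apart from the other knockout libraries, with a gap to the next library larger than Dixon's 95% critical value of 0.829 of the group's range. Chance gives this in about 5% of independent groups. The 38 genes share the same libraries and are not independent, so their count cannot be set against that rate. The share of all tested genes with such a gap was not computed. Mcm7 stood at 317 CPM there and at 221 to 237 CPM in the other knockout libraries. Prim1 was at 60.3 CPM against 41.9 to 44.8 CPM. Rrm1 was at 381 CPM against 267 to 278 CPM. Hells was at 76 CPM against 49 to 50.8 CPM. Ccne2 was at 40.9 CPM against 26.2 to 26.4 CPM.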

How the results depend on the processing

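Over 647 values of the 38 genes under alternatives, 546 kept their direction and their side of the threshold, 81 no longer passed, 20 newly passed and 0 changed sign. With 1 library left out in turn, the 38 genes gave 4 to 24 higher and 0 to 1 lower, the further replication genes 4 to 15 and 0 to 2, the further nucleotide genes 0 to 4 and 0 to 2, the G1/S regulators 3 to 11 higher, and the mitosis genes 2 to 15 higher. Leaving out a wild-type library leaves 2 of that group, and fewer samples limit the calls. The log2 ratio ran from -0.27 to -0.03 for Cdt1 to Gmnn, from -0.17 to -0.04 for Rrm2 to Rrm1, from 0.56 to 0.80 for Ccne1 to Ccne2, from 0.14 to 0.23 for Uhrf1 to Dnmt1 and from -0.16 to -0.04 for Chaf1a to Chaf1b. The 38 genes gave 17 to 24 higher under the other scalings, filters, the fit that was not robust and log2 FPKM, where 5.13% to 9.42% of all genes were. The further nucleotide genes gave 3 higher with upper-quartile factors, with total library size and with no filter, and the mitosis genes 7 higher with log2 FPKM; the cause was not tested. With a further T before the E2F core, 15 genes had a match in place of 22. With the replicate number as a block, over replicates 1 to 3 of each group, the 38 genes gave 16 higher (7.44% of all genes) and 1 lower (6.16%), the further replication genes 0 lower, and the further nucleotide genes 2 higher and 2 lower. Same-numbered libraries correlated at -0.048, 0.025 and 0.158 in their deviations from the group means. Among the wild-type libraries, only replicate 3 correlated best with the knockout library of its own number. With so few libraries, these correlations cannot tell whether same-numbered libraries shared a batch, litter or day.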
